A study of Mus musculus with 2 samples.

Results

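The genes described here are HSF1, the transcription factor that drives the heat shock response, and 9 chaperone or cochaperone genes that it is known to regulate. They were found by symbol in the feature list of the deposited matrices (Hsf1, Hspa1a, Hspa1b, Hspa8, Hsph1, Hsp90aa1, Dnajb1, Hspb1, Bag3 and Hspd1), and all 10 were present among 19059 features. The samples were dFLEx CDS mouse tumors profiled by single-nucleus RNA-seq. CIC::DUX4 sarcoma (CDS) is driven by a fusion of the repressor capicua with the transcription factor DUX4, and in the dFLEx CDS mouse that fusion is switched on in hind limb muscle by Cre and FLPE recombinases, both expressed from electroporated plasmids with the CAG promoter. The untreated group was 4 tumors labelled dFLEx CDS +/-, with no vehicle named in the label. The Minnelide group was 4 tumors from dFLEx CDS mice that received Minnelide at 0.42 mg/kg over 21 days, and its label gives no genotype or age. This drug releases triptolide in the body, which binds the XPB subunit of TFIIH and blocks transcription by RNA polymerase II. Each group was deposited as 1 sample with 4 count matrices. The deposited names mark Minnelide tumors 1 and 2 as responder and Minnelide tumors 3 and 4 as nonresponder, words that the labels do not give. The paper states that it sequenced treated tumors with either a favorable or a poor response, so this group was selected by response. It was kept as 1 group here, and no difference between these words was tested. Each matrix was taken as a tumor, since the series design gives 4 tumors per group, and p-values therefore measure the spread between matrices.

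When proteins unfold, HSF1 is released from chaperones, trimerizes and binds heat shock elements, which are inverted repeats of the bases GAA. It then raises transcription of cytosolic HSP70 (Hspa1a and Hspa1b), the HSP110 exchange factor Hsph1, the J-domain protein Dnajb1, the small heat shock protein Hspb1, the cochaperone Bag3 and the stress-inducible HSP90 gene Hsp90aa1. The mitochondrial chaperonin Hspd1 and the constitutive HSP70 Hspa8 have a high basal level in most cells. Triptolide is known to block this response. Skeletal muscle keeps high levels of Bag3 and Hspb1, whose proteins act at the Z disc and in the turnover of damaged filaments.

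Promoter sequence for 7 of the 10 genes was in the RefSeq table used here (build GRCm38.p6), and Hsf1, Hspa8 and Hsp90aa1 had no entry. The 250 bases before each start were searched for the 8-base cores GAANNTTC and TTCNNGAA, each of which is its own reverse complement and so needs no second strand. At least 1 core was found for 5 of these genes, Hspa1a, Hspa1b, Hsph1, Hspb1 and Hspd1, and for 12.8% of all 32851 promoters in the table. That share counts single promoters, whereas a gene was counted if any of its starts had a core. Hspd1 also has a start without a core. Bag3 and Dnajb1 had none before the start. The windows below run from 160 to 41 bases before the start, with the cores in capitals. They are shown for the inducible HSP70 pair, for Hspb1, whose level was the most uneven among the tumors, and for Hspd1, whose fold change was positive. The Hspa1a and Hspa1b windows were the same in 120 of 120 bases, each with 1 core that begins 104 bases before the start. In Hspb1 the cores began 117 and 97 bases before the start. In Hspd1 the 3 cores of 1 of its starts overlap and began 144, 139 and 134 bases before it.
Hspa1a, chr17:34972197-34972316, minus strand: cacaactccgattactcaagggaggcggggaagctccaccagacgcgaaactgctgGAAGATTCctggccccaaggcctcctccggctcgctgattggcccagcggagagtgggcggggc
Hspa1b, chr17:34959279-34959398, minus strand: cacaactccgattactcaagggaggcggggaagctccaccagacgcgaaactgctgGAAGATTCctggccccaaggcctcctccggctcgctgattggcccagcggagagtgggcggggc
Hspb1, chr5:135887759-135887878, plus strand: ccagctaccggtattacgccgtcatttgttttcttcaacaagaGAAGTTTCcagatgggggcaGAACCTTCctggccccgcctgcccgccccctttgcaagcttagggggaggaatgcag
Hspd1, chr1:55087973-55088092, minus strand: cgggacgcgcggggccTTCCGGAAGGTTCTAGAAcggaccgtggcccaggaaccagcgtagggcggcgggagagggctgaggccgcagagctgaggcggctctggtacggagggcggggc

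In the GENCODE annotation of GRCm39, the build that the study names as mm39, Hspa1a (chromosome 17, 35188166 to 35191132) and Hspa1b (chromosome 17, 35175412 to 35178214) each consist of 1 exon. Of the 90-base windows of the Hspa1a transcript, 49.3% also occur in Hspa1b. The last 500 bases of the Hspa1a and Hspa1b transcripts share no such window. How reads were divided between both genes is not settled by the labels, so the split between them is uncertain. Hspd1 (chromosome 1, 55116989 to 55171038, 12 exons) overlaps its partner gene Hspe1 on the other strand, and Hsf1 (chromosome 15, 76361558 to 76388138, 13 exons) overlaps Bop1 and Dgat1 in the same way. Bag3 lies on chromosome 7 (128125283 to 128148705, 4 exons) and Hspb1 on chromosome 5 (135916760 to 135918417, 3 exons).

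After filtering, 59904 of 72338 deposited nuclei were retained, with 15997957 to 62566004 UMIs (unique molecular identifiers, counted as RNA molecules) per tumor. Clusters were named from marker genes, and 57.6% of retained nuclei were tumor-like while 5.42% stayed unnamed. The unnamed nuclei were mostly a cluster of 2094 nuclei in untreated tumor 1 and a cluster of 1060 nuclei in Minnelide tumor 3. Myocyte-like nuclei were 38.6% of untreated tumor 1 and 50.2% of Minnelide tumor 2, against 0.846% to 7.35% of the other 6 tumors. Most of those in untreated tumor 1 were in a shallow cluster of 2196 nuclei, 99.4% from that tumor, with a median of 979.5 UMIs. This cluster was also raised for 11 tumor, 9 fibroblast, 10 endothelial and 8 macrophage markers. Myocyte-like levels in untreated tumor 1 therefore rest in large part on a mixed cluster. Most tumor-like nuclei of untreated tumor 4 were in a shallow cluster of 6616 nuclei, 96.2% from that tumor, with a median of 759 UMIs. Besides 12 tumor markers, it was raised for 8 myocyte, 6 fibroblast, 4 endothelial, 3 pericyte and 3 osteoclast markers. Tumor-like levels in untreated tumor 4 therefore rest in part on this cluster. Barcodes were shared by 4 pairs of matrices, 49 to 132 in each, and every such pair joined an untreated and a Minnelide tumor. All barcodes of a matrix had the same bases at positions 8 and 9, and only these 4 pairs of matrices had them in common. No other pair could therefore share a barcode. Sequencing runs are not given in the labels, so run and treatment cannot be told apart. Levels are given as CPM, the UMIs of a gene summed over the nuclei of a tumor and scaled to a fixed UMI total. In whole tumors, fewer cells of a type and less RNA per cell cannot be told apart.

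None of the 10 genes was called different between Minnelide and untreated tumors by edgeR's quasi-likelihood test after Benjamini-Hochberg adjustment. In simulated counts with the spread of the tumor-like sums, this test called 5.05% of log2 changes of 1. It called 54.5% of log2 changes of 2, so a lack of calls does not show a lack of change. In tumor-like nuclei 8 of the 10 had a negative log2 fold change, with a median of -0.21 over the 10 genes, while the median of the 13010 genes tested was -0.0020. Over all retained nuclei 7 of 10 were negative, with a median of -0.17 beside 0.0045 for all genes. The test called 0% of genes in tumor-like nuclei and 0% over all retained nuclei. At an unadjusted p under 0.05, edgeR counted 8.72% of genes in tumor-like nuclei and 9.97% over all nuclei, which included 1 and 0 of the heat shock genes. DESeq2 called 0.561% and 1.27% of genes in these comparisons and none of the 10.

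**Figure D1:**
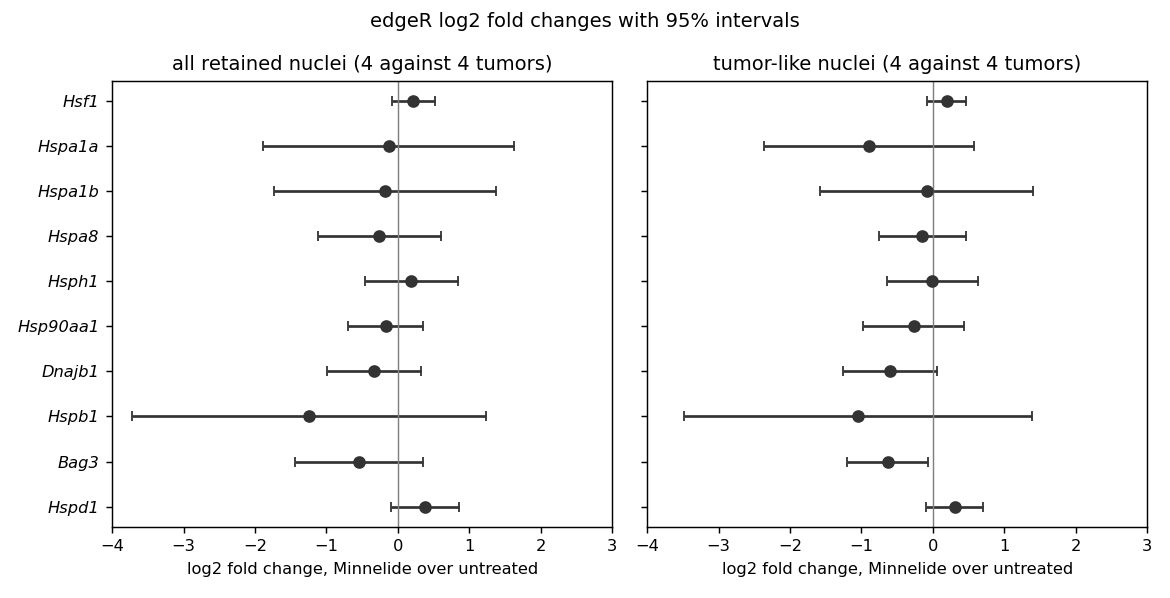
Log2 fold change of each gene, Minnelide over untreated, over all retained nuclei (left) and in tumor-like nuclei (right), from edgeR with 95% intervals, 4 against 4 tumors. The Bag3 interval in tumor-like nuclei lies below 0 (from -1.20 to -0.06), and the widest interval there is that of Hspb1, from -3.49 to 1.38.

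Hsf1 itself was among the steadiest of the set. In tumor-like nuclei it stood at 39.5, 35.7, 30.5 and 33.1 CPM in untreated tumors 1 to 4 and at 41.5, 36.5, 33.8 and 31.9 CPM in Minnelide tumors 1 to 4. Both groups covered the same range, and the log2 fold change was 0.19 ± 0.12 (SE; edgeR adjusted p = 0.612). Its level over the 8 tumors was 35.3 ± 3.75 CPM (SD, n = 8) in tumor-like nuclei, 32.9 ± 5.30 in fibroblast-like nuclei and 44.0 ± 6.92 in myocyte-like nuclei, the highest of 6 classes. Neighbouring classes in the order differed by less than their spread. Activity of HSF1 is set on the protein, which this assay does not measure.

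The inducible HSP70 genes Hspa1a and Hspa1b were nearly silent in every tumor. Hspa1a reached 0.917, 2.91, 0.753 and 1.22 CPM in tumor-like nuclei without treatment and 0.495, 1.77, 0.464 and 0.492 CPM in those of the Minnelide group, from 7 to 38 UMIs per tumor. Within the Minnelide group tumor 2 stood apart, and 3 of the 4 Minnelide tumors lay below every untreated tumor. The log2 fold change of Hspa1a was -0.90 ± 0.64 and that of Hspa1b was -0.09 ± 0.65 (SE; edgeR adjusted p = 0.654 and 0.971). Without Minnelide tumor 2 the Hspa1a change was -1.44, and without both tumors rich in myocyte-like nuclei it was -1.66. Both of these settings drop the Minnelide tumor with the highest Hspa1a. Over 18 settings the Hspa1a change ran from -1.66 to -0.24.

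The HSP70 RNA was concentrated in few nuclei to a different degree in each tumor. Over all tumors 873 UMIs of Hspa1a and Hspa1b fell in 619 of 59904 retained nuclei, and 40 nuclei held 3 or more of them. In untreated tumor 2, 14 nuclei held 57.5% of the tumor's 153 UMIs. Minnelide tumor 2 came next, with 45.1% of 206 UMIs in 13 nuclei and up to 15 UMIs in 1 nucleus. Untreated tumor 1 had the most UMIs, 233, but only 2.58% of them in a nucleus with 3 or more. Myocyte-like nuclei made up 19 of the 40 nuclei, 11 of them in Minnelide tumor 2, and tumor-like nuclei made up 7, of which 5 were in untreated tumor 2. Osteoclast-like nuclei, a class of 771 nuclei, held 3 of the 40.

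Dnajb1, the J-domain protein that delivers clients to HSP70, was low in tumor-like nuclei. It stood at 6.13, 8.58, 4.24 and 6.66 CPM in the untreated tumors and at 3.35, 3.16, 3.85 and 4.92 CPM in the Minnelide tumors. Of the Minnelide tumors, 3 were below all untreated tumors, and the groups overlapped through Minnelide tumor 4 and untreated tumor 3. Its log2 fold change was -0.60 ± 0.29 (SE; edgeR adjusted p = 0.551), and that in fibroblast-like nuclei was -0.06 ± 0.49.

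Hsph1, the nucleotide exchange factor of HSP70, ranged from 17.6 to 33.6 CPM in untreated and from 16.8 to 31.6 CPM in Minnelide tumor-like nuclei. The ranges nearly coincided and the log2 fold change was -0.01 ± 0.28 (SE). Hspa8, which encodes the constitutive HSC70 that folds new proteins and uncoats clathrin, gave 178, 93.4, 76.0 and 62.5 CPM in the untreated tumors and 72.2, 79.7, 88.7 and 85.9 CPM in the Minnelide tumors. Untreated tumor 1 was alone at the top. Without that tumor the log2 fold change turned from -0.15 to 0.16, and over all retained nuclei it turned from -0.26 to 0.24. Hspa8 was highest in untreated tumor 1 in each of the other classes measured there, with 202 CPM in fibroblast-like, 254 CPM in macrophage-like, 341 CPM in pericyte-like and 420 CPM in myocyte-like nuclei.

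Hsp90aa1, the stress-inducible cytosolic HSP90, was more uneven among untreated than among Minnelide tumors. The untreated tumors gave 41.3, 96.1, 63.2 and 105 CPM in tumor-like nuclei, and the Minnelide tumors gave 54.1, 53.2, 62.1 and 63.8 CPM. All 4 Minnelide values lay inside the untreated range, and the log2 fold change was -0.27 ± 0.31 (SE; edgeR adjusted p = 0.777). Untreated tumor 4, most of whose tumor-like nuclei were in the shallow cluster raised for several classes, had the shallowest ones, with a median of 809 UMIs. Among its tumor-like nuclei with 1000 UMIs or more the Hsp90aa1 level was 78.6 CPM.

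**Figure D2:**
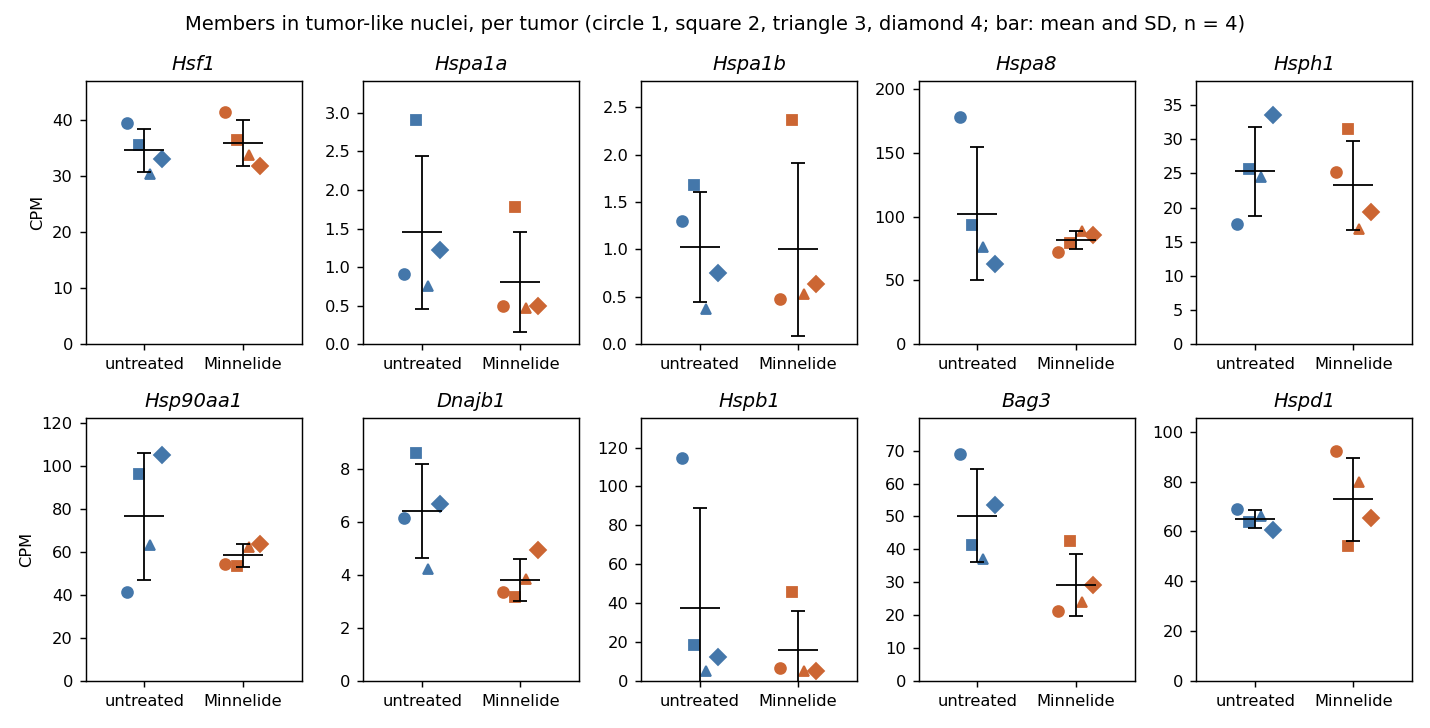
Level of each of the 10 genes in tumor-like nuclei, in CPM on axes that start at 0, with 1 point per tumor and the mean and SD of each group (n = 4). Hspb1 and Hspa8 have untreated tumor 1 far above the rest, and most Bag3 points of the Minnelide tumors sit below the untreated ones.

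Among the 10 genes in tumor-like nuclei, Bag3 gave the largest shift relative to its standard error. BAG3 links HSP70 to small heat shock proteins and to selective autophagy. It stood there at 69.0, 41.4, 37.2 and 53.4 CPM in the untreated tumors and at 21.1, 42.6, 24.0 and 29.0 CPM in the Minnelide tumors. Minnelide tumors 1, 3 and 4 were below every untreated tumor, and Minnelide tumor 2 lay within the untreated range. The log2 fold change was -0.63 ± 0.25 (SE), with an edgeR unadjusted p = 0.0331 and an adjusted p = 0.551.

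The Bag3 fold change was negative in each of the other classes tested, none of them past the adjusted threshold. It was -0.62 ± 0.24 (SE; edgeR unadjusted p = 0.0282) in fibroblast-like nuclei, a comparison where 0% of 11586 genes were called and 5.47% had an unadjusted p under 0.05. In macrophage-like nuclei it was -0.75 ± 0.33 (SE; edgeR unadjusted p = 0.0428), with 0% of genes called and 5.25% at an unadjusted p under 0.05. Levels in those nuclei were 50.7, 41.3, 38.5 and 92.1 CPM in the untreated tumors and 27.3, 37.2, 24.2 and 31.1 CPM in the Minnelide tumors. These groups did not overlap, as was so, in the lower direction, for 1.9% of the genes tested in macrophage-like nuclei. Their nearest values were 38.5 and 37.2 CPM. Tumor markers in macrophage-like nuclei summed to 3755, 14783, 11752 and 13903 CPM untreated and to 21142, 12591, 20876 and 13952 CPM with Minnelide. In fibroblast-like nuclei they summed to 2974 to 11477 CPM untreated and to 9342 to 15798 CPM with Minnelide. The part of tumor RNA in these Bag3 differences was not tested. The fold change was -0.50 ± 0.28 in endothelial-like, -0.71 ± 0.43 in pericyte-like and -0.33 ± 0.31 in myocyte-like nuclei. The nuclei of all classes come from the same 8 tumors, so these values do not replicate each other. The Bag3 change in tumor-like nuclei differed from that in fibroblast-like nuclei by -0.08 ± 0.17 (SE) on the log2 scale.

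Myocyte-like nuclei held the most Bag3, 138 ± 45.5 CPM (SD, n = 8), followed by fibroblast-like nuclei with 70.0 ± 24.9 CPM, while tumor-like nuclei had the least of the 6 classes, 39.7 ± 15.9 CPM. The gap between the first and the second class was 1.49 times the larger SD, the widest of any step for Bag3. RNA of muscle genes was also counted in tumor-like nuclei, where the 10 myocyte markers summed to 5298, 1646, 2497 and 5139 CPM in the untreated tumors and to 920, 5782, 409 and 719 CPM in the Minnelide tumors. None of the 10 markers was at 0 in any tumor, and Minnelide tumor 2 was the highest of its group for muscle markers and for Bag3. The part of muscle RNA in the Bag3 difference was not tested. With untreated tumor 1 and Minnelide tumor 2 both left out, the Bag3 log2 fold change was -0.74 in tumor-like nuclei. Over all retained nuclei it was -0.93 (edgeR adjusted p = 0.107), beside -0.54 with every tumor kept. Without Minnelide tumor 2 alone it was -1.07 over all retained nuclei. Leaving out both tumors was chosen after seeing the data, and both settings drop the Minnelide tumor with the highest Bag3. In the tumors kept, myocyte markers in tumor-like nuclei still summed to 1646, 2497 and 5139 CPM without treatment and to 920, 409 and 719 CPM with Minnelide. These settings therefore do not set muscle RNA aside.

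Hspb1, the small heat shock protein HSP27, was the most uneven of the set. In tumor-like nuclei it stood at 114, 18.3, 4.99 and 12.5 CPM across untreated tumors 1 to 4 and at 6.65, 46.0, 5.32 and 5.27 CPM across Minnelide tumors 1 to 4. The high values were those of untreated tumor 1 and Minnelide tumor 2, both rich in myocyte-like nuclei. Tumor-like nuclei of untreated tumor 1 also held endothelial markers at 3481 CPM, against 406 to 864 CPM in the other tumors. Their tumor markers summed to 14498 CPM, the lowest of all tumors, and their median of 9844 UMIs was the highest. The part of these marker and depth differences in the Hspb1 and Hspa8 levels was not tested. The paper describes endothelial cell-like tumor cells with a lower CIC::DUX4 activity score, found in 1 of 4 dFLEx CDS tumors. Its text does not name that tumor, and whether it is untreated tumor 1 was not tested. The Hspb1 log2 fold change of -1.05 ± 1.06 (SE; edgeR adjusted p = 0.751) turned to 0.43 without untreated tumor 1.

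Untreated tumor 1 and Minnelide tumor 2 were highest in their groups in fibroblast-like and macrophage-like nuclei, but not both in myocyte-like nuclei. In fibroblast-like nuclei Hspb1 was 157 CPM in untreated tumor 1 and 36.6 CPM in Minnelide tumor 2, and the other 6 tumors gave 4.74 to 14.4 CPM. Its level in myocyte-like nuclei was 202 ± 176 CPM (SD, n = 8), with 556 CPM in untreated tumor 1 and 362 CPM in the 72 myocyte-like nuclei of Minnelide tumor 3. Minnelide tumor 2, with 3425 myocyte-like nuclei, gave 73.7 CPM in them, the lowest of its group and close to the 71.5 CPM in its macrophage-like nuclei. In pericyte-like nuclei the log2 fold change was -2.59 ± 0.94 (SE; edgeR unadjusted p = 0.0222, adjusted p = 0.808), beside 0% of genes called and 5.91% at an unadjusted p under 0.05, and only 3 Minnelide tumors had 20 such nuclei. Immediate early genes, which also respond to stress during dissociation, summed to 997 CPM within tumor-like nuclei for untreated tumor 1 and to 249 to 471 CPM for the other 7 tumors. Neither their part nor that of muscle RNA in the Hspb1 and Hspa8 levels was tested.

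**Figure D3:**
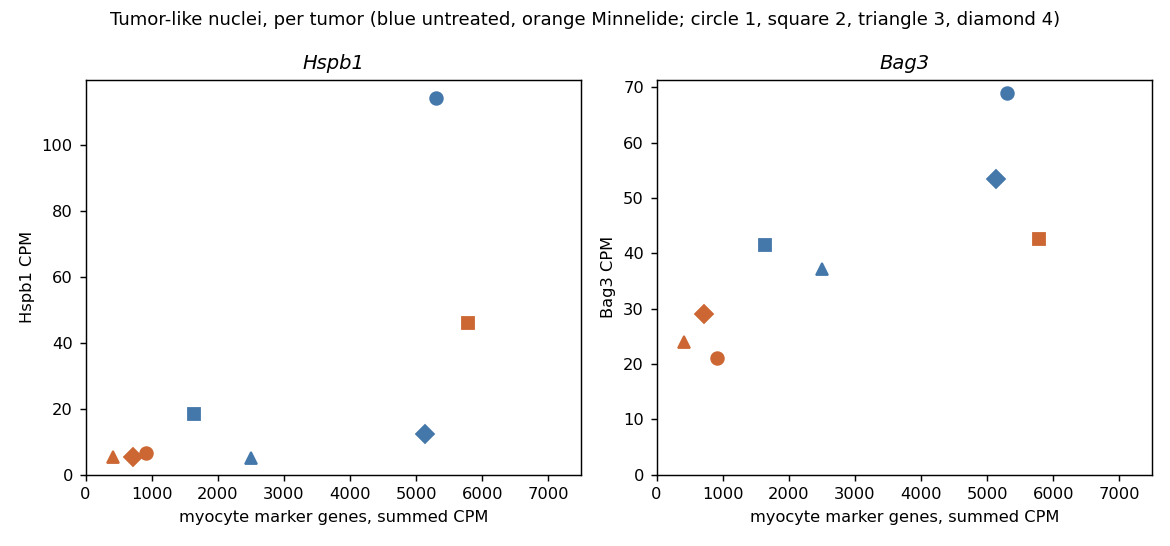
Hspb1 (left) and Bag3 (right) in tumor-like nuclei, in CPM, against the summed CPM of the myocyte marker genes in the same nuclei, 1 point per tumor. Untreated tumor 1 and Minnelide tumor 2 hold the highest Hspb1 levels, 114 and 46.0 CPM, and the highest marker sums, while untreated tumor 4 has a similar marker sum with 12.5 CPM.

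Hspd1, the HSP60 chaperonin of the mitochondrial matrix, was the only gene of the set besides Hsf1 with a positive fold change in tumor-like nuclei. Its levels were 69.0, 63.9, 66.1 and 60.7 CPM in the untreated tumors and 92.4, 54.0, 79.8 and 65.3 CPM in the Minnelide tumors. The untreated tumors lay close together and inside the wider Minnelide range, and the log2 fold change was 0.31 ± 0.17 (SE; edgeR adjusted p = 0.584).

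Among the 6 classes tested, the Hspd1 log2 fold change was largest in endothelial-like nuclei. There it stood at 49.7, 37.8 and 31.4 CPM in untreated tumors 2 to 4 and at 102, 52.0, 64.3 and 56.0 CPM in the Minnelide tumors. The groups did not overlap, which in the higher direction held for 5.02% of genes in this class. Its log2 fold change was 0.80 ± 0.27 (SE; edgeR unadjusted p = 0.0157, adjusted p = 0.397), where 0.0104% of 9645 genes were called and 11.2% had an unadjusted p under 0.05. Untreated tumor 1 had 8 endothelial-like nuclei and was left out. The difference between the Hspd1 changes in tumor-like and endothelial-like nuclei was -0.54 ± 0.19 (SE; edgeR unadjusted p = 0.0147, adjusted p = 0.537), and 0.00825% of 12116 genes were called in that comparison, with 8.28% at an unadjusted p under 0.05. Endothelial-like nuclei had median UMIs between 1685 and 3251 without treatment and between 1734 and 4429 with Minnelide. Tumor markers in these nuclei summed to 9821, 6783 and 10785 CPM in untreated tumors 2 to 4 and to 19157, 9970, 17444 and 11738 CPM in the Minnelide tumors. Minnelide tumors 1 and 3, with the highest tumor marker sums, also had the highest Hspd1 levels, and their endothelial markers summed to 3847 and 5202 CPM against 6335 to 8029 CPM in the other 5 tumors. The part of tumor RNA in the Hspd1 difference was not tested.

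Among the 6 classes compared between treatments (tumor-like, fibroblast-like, endothelial-like, macrophage-like, pericyte-like and myocyte-like), all 10 genes had their highest mean in myocyte-like nuclei at the clustering resolution used, but only 4 of 10 did at resolution 0.5. The small osteoclast-like class was left out of this order, and in it Dnajb1 was higher still, at 13.8 ± 7.62 CPM (SD, n = 8) from 48 UMIs, against 9.51 ± 8.96 CPM in myocyte-like nuclei. Hspd1 was 73.8 CPM and Hspb1 was 12.9 CPM in osteoclast-like nuclei. Among the 6 classes, the step from the first to the second exceeded the larger SD only for Bag3. For Hspa1a, Hspa1b and Dnajb1 the highest myocyte-like values, 38.0, 46.7 and 29.2 CPM, came from the 72 nuclei of Minnelide tumor 3. Myocyte-like nuclei of the untreated tumors gave at most 5.87, 6.27 and 12.4 CPM for these genes. In the comparison within myocyte-like nuclei 0% of 10383 genes were called and 9.18% had an unadjusted p under 0.05. Tumor-like nuclei were last of the 6 classes for Bag3, Hspa1a and Hspa8 and second for Hspd1, with 68.9 ± 12.0 CPM (SD, n = 8). For Hsp90aa1 the 6 class means lay between 59.7 and 68.3 CPM, and each step was smaller than the spread over tumors. Hspb1 spanned 16.7 CPM in endothelial-like to 202 CPM in myocyte-like nuclei, with an SD close to or above the mean in each of the 6. Classes came from clusters of these nuclei, so their order is a description.

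**Figure D4:**
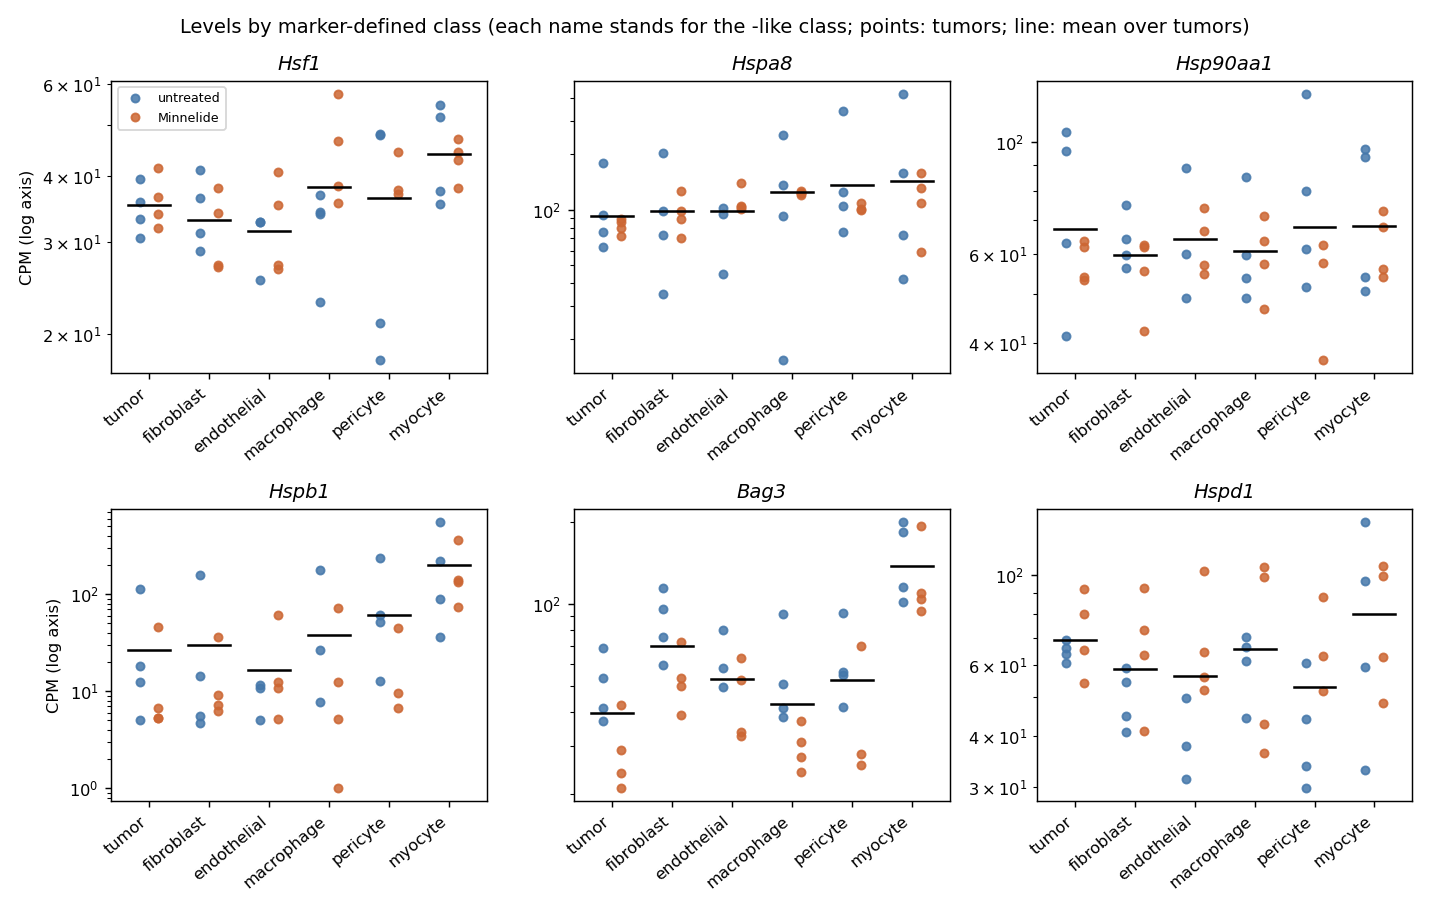
Levels of 6 of the genes by cell class, in CPM on log axes, with 1 point per tumor (untreated at the left, Minnelide at the right of each class) and a line at the mean over tumors, and 1 macrophage-like value of 0 for Hspb1 not drawn. Bag3 and Hspb1 stand highest in myocyte-like nuclei, at 138 and 202 CPM, while Hsp90aa1 is level across classes.

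The unnamed cluster of Minnelide tumor 3 differed from the tumor-like nuclei of that tumor for some chaperones. In this cluster, which was led by the collagen chaperone Serpinh1, the growth factor Mdk, Sparc and Pdia3, Hspa8 was 255 CPM and Hspd1 was 184 CPM, against 88.7 and 79.8 CPM in the tumor-like nuclei of that tumor. Its nuclei were shallower, with a median of 1951 UMIs against 3644, had a median mitochondrial percent of 1.19 against 0.652, and held fibroblast markers at 7894 CPM against 2625 CPM. Tumor markers were higher in it as well, at 33701 CPM against 27959 CPM. The part of depth, RNA quality and fibroblast RNA in the Hspa8 and Hspd1 levels was not tested. Bag3 in that cluster was 30.2 CPM, near the 24.0 CPM of its tumor-like nuclei. The unnamed cluster of untreated tumor 1 had 276 CPM of Hspa8 and 240 CPM of Hspb1, both within the range of the named classes of that tumor.

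Chaperone levels also went with the depth of a nucleus. Tumor-like nuclei of each tumor were split at that tumor's median UMIs into a shallow and a deep set, and 6 of the 10 genes (Hspa8, Hsph1, Hsp90aa1, Dnajb1, Hspb1 and Hspd1) had a higher CPM in the shallow set in 8 of 8 tumors, as did 13.9% of the 13010 genes tested. Hspb1 was higher by a median of 2.19 times and Hspa8 by 1.84 times. In Minnelide tumor 1, for example, Hspa8 was 133 CPM in the shallow set and 58.3 CPM in the deep set. Hsf1 was higher in the shallow set in 3 of 8 tumors and Bag3 in 6 of 8, with median ratios of 0.914 and 1.16. The median mitochondrial percent was also higher in the shallow set, from 0.246 to 0.817 against 0.163 to 0.599 in the deep set. The part of RNA quality in these ratios was not tested.

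**Figure D5:**
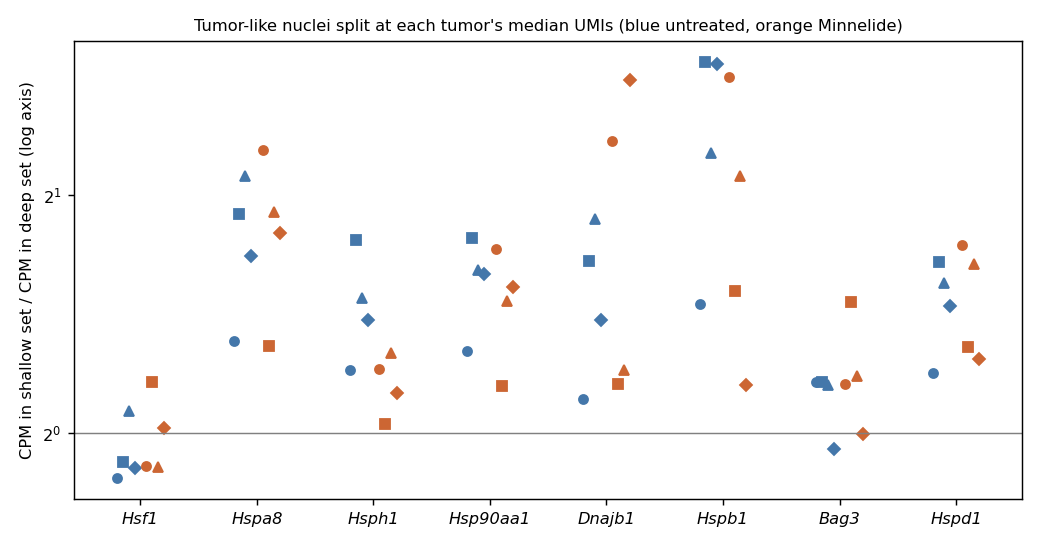
Ratio of the CPM in the shallow set to that in the deep set of tumor-like nuclei for 8 of the genes, on a log axis, 1 point per tumor; Hspa1a and Hspa1b are left out for their low counts. All points of Hspa8 lie above 1, from 1.29 to 2.28, while those of Hsf1 lie on both sides, from 0.877 to 1.16.

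The other genes of the protein-folding network were read from 11 lists, and none of their genes were called by edgeR in tumor-like or in all retained nuclei. Among regulators of HSF1, 3 of 9 genes were higher and 6 lower in tumor-like nuclei. Sirt1, the deacetylase that prolongs HSF1 binding, went from 44.8 ± 9.83 to 33.3 ± 3.82 CPM (SD, n = 4; log2 fold change -0.28 ± 0.16). The HSP70 and HSP110 family had 4 tested genes higher and 4 lower. Hspa13, a microsomal HSP70, had the smallest unadjusted p of that family, with 25.5 ± 2.37 CPM in untreated and 37.7 ± 5.41 CPM in Minnelide tumors (log2 fold change 0.70 ± 0.15; edgeR unadjusted p = 0.00152, adjusted p = 0.551).

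HSP90 and its cochaperones had 9 genes higher and 6 lower, and the constitutive Hsp90ab1 stood at 304 ± 39.1 and 341 ± 44.2 CPM (SD, n = 4). Fkbp5, an HSP90 partner induced by glucocorticoids, was 55.4 ± 14.9 CPM in Minnelide tumors, while the untreated tumors ranged from 54.8 to 782 CPM. The TRiC chaperonin, which folds actin and tubulin, had 7 of 8 subunits higher, with a median log2 fold change of 0.14. Tcp1 was 75.5 ± 8.76 CPM in untreated and 82.4 ± 7.56 CPM in Minnelide tumors. J-domain cochaperones were lower in 6 of 8, small heat shock proteins in 3 of 5 tested and BAG cochaperones in 2 of 5. Mitochondrial chaperones and proteases were higher in 4 of 7.

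Other genes that heat shock is known to induce had 1 positive and 3 negative fold changes. Hmox1, the heme oxygenase of the oxidative stress response, ranged from 4.33 to 39.7 CPM in untreated and from 2.61 to 4.14 CPM in Minnelide tumor-like nuclei (log2 fold change -1.91 ± 0.62; edgeR unadjusted p = 0.0141, adjusted p = 0.551). Serpinh1, which encodes the collagen chaperone HSP47, was 173 ± 32.5 and 236 ± 58.9 CPM (SD, n = 4; log2 fold change 0.57 ± 0.24). In the unfolded protein response of the endoplasmic reticulum, 9 of 17 genes were higher and 8 lower, among them Herpud1, with a log2 fold change of -0.99 ± 0.33, and Ddit3, with -0.67 ± 0.24 (SE; edgeR adjusted p = 0.551 for each). Immediate early genes were lower in 16 of 18, with a median log2 fold change of -0.55, and Jun went from 48.2 ± 34.7 to 17.4 ± 7.28 CPM (SD, n = 4).

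The genes most like the inducible members were sought among 13000 genes by Pearson's r with the mean z-score of 6 of them (Hspa1a, Hspa1b, Hsph1, Dnajb1, Hspb1 and Bag3) over the tumor-like nuclei of 8 tumors. They were Leng1 (r = 0.96), the sphingosine kinase Sphk1 (0.96), the prostaglandin E synthase Ptges (0.92), the RNA-binding protein gene Celf3 (0.91) and Fam189a1 (0.91). The mean z-score was highest in untreated tumor 2, at 0.90, and Minnelide tumor 2, at 0.72, and lowest in Minnelide tumor 3, at -0.80. Celf3 was near the floor, at 0.535 to 0.881 CPM, as was Fam189a1, at 0.376 to 1.84 CPM. As the highest of 13000 correlations over only 8 tumors, these r values are high in part through their selection. The 8 tumors differ in treatment, muscle content and depth, so these correlations are a description of the tumors.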

How the data were processed

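Nuclei were profiled with a 10x Genomics 3′ kit per the labels, and the paper adds that on-chip multiplexing was used. The authors aligned reads to mm39 with intronic reads included and deposited raw UMI counts per gene and called nucleus. The labels name bcl2fastq 2.20 and Cell Ranger 7.0.1, and the file headers name Cell Ranger 9.0.1. Which annotation or probe set gave the 19059 features, which lack Ubb, is not given in the sources used here.

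From these counts, nuclei were removed at a posterior of 0.75 or more in a mixture of 2 regressions of mitochondrial percent on detected genes, or with under 200 genes. Doublets were scored with Scrublet, and the top 0.8% per 1000 nuclei of each tumor were removed. Nuclei were clustered in scanpy 1.11.5 with 2000 variable genes, without the markers and the genes described, 30 components, 40 neighbors and Leiden resolution 1.0. No integration was used. Clusters were named "-like" from marker lists, and the scoring rule was adjusted after the 26 clusters had been seen. Under it some clusters raised for the markers of several classes stayed unnamed, while others kept a name. UMI counts were summed per tumor and class, leaving out tumors with under 20 nuclei, and tested with edgeR 4.0.16 (quasi-likelihood, TMM factors, its default filter on low counts) over all genes that passed, in R 4.3.3. A fit of both classes with a term per tumor gave the differences between classes. Scripts were tested on simulated counts. DESeq2 1.42.0, limma 3.58.1, other scalings and filters, other sets of nuclei and leaving out tumors were alternatives. Leaving out both tumors rich in myocyte markers and joining the unnamed clusters were chosen after seeing the data.

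Tumor numbers follow file order and pair nothing. The genes described and the gene lists were chosen with earlier results of these data known. Named genes are the 10 described, up to 2 per other list with the smallest unadjusted p in tumor-like and in all retained nuclei, and the 5 most like the inducible genes; Hsp90ab1, Serpinh1 and the others named from lists met this rule. Depth per tumor limits precision for Hspa1a and Hspa1b in particular, where counts fell to 4 UMIs in a tumor, and such counts carry counting error beyond the spread between tumors.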

Additional observations from a re-analysis of the deposited data

Results flagged for a closer look

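Levels of the 10 genes in all retained and in tumor-like nuclei were checked for a tumor far from the other 3 of its group. This was so in 8 of 40 groups. For independent, normally distributed values chance flags about 1 in 20, but all retained nuclei include the tumor-like ones. The 40 groups are therefore not independent, and no excess over chance can be read from 8. Over all retained nuclei Hspb1 was 207 CPM in untreated tumor 1, against 8.19 to 23.9 CPM in the others of that group. In tumor-like nuclei it was 114 CPM there, against 4.99 to 18.3 CPM. Minnelide tumor 2 stood apart over all retained nuclei for Hspb1 (63.7 CPM, the others at most 10.9 CPM), Bag3 (80.5 CPM, the others 27.0 to 33.3 CPM) and Hspa1a (4.14 CPM, the others 0.719 to 1.03 CPM). In its tumor-like nuclei the same held for Hspb1 (46.0 CPM), Hspa1a (1.77 CPM, the others at most 0.495 CPM) and Hspa1b (2.37 CPM, the others 0.475 to 0.633 CPM). Untreated tumor 1 and Minnelide tumor 2 are the tumors with the most myocyte-like nuclei, and the part of those nuclei in these levels was not tested.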

How the results depend on the processing

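No paired analysis was possible because the labels give no replicate numbers within a group. No alternative gave an adjusted p under 0.05 for the 10 genes over all retained or in tumor-like nuclei, for Bag3 in the other 5 classes, for Hspd1 in endothelial-like, Hspb1 in pericyte-like or Dnajb1 in fibroblast-like nuclei, or for the differences between classes given for Bag3 and Hspd1. Of the 494 fold changes and differences, 462 kept their sign. DESeq2 called 176 genes over all retained, 73 in tumor-like, 14 in fibroblast-like, 35 in endothelial-like and 51 in myocyte-like nuclei, where edgeR called 0 or, in endothelial-like nuclei, 1. Leaving out 1 tumor at a time gave 0 to 1 calls over all retained nuclei, 0 to 2 in endothelial-like nuclei and 0 to 2 for the difference between tumor-like and endothelial-like nuclei. Without doublet removal 0 genes were called in endothelial-like nuclei, and without both tumors rich in myocyte markers 7 were called in pericyte-like nuclei. At Leiden resolution 0.5, 4 of the 10 genes had their highest level in myocyte-like nuclei instead of 10, among 6 classes without the osteoclast-like one.

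Signs that turned were those of small changes or of changes set by 1 tumor, and the cause was not tested. Leaving out 1 tumor at a time over all retained nuclei gave log2 fold changes of -1.13 to 0.42 for Hspa1a, -0.94 to 0.25 for Hspa1b, -0.47 to 0.24 for Hspa8, -0.15 to 0.34 for Hsph1 and -2.57 to 0.48 for Hspb1. In tumor-like nuclei the same gave -0.77 to 0.31 for Hspa1b, -0.31 to 0.16 for Hspa8, -0.19 to 0.16 for Hsph1 and -2.45 to 0.43 for Hspb1. Hspa8 and Hspb1 turned positive in both sets of nuclei without untreated tumor 1, as did Hspa1b without untreated tumor 2, and over all retained nuclei Hsph1 turned negative without Minnelide tumor 2. Without both tumors rich in myocyte markers Hspa8 was 0.35 over all retained and 0.18 in tumor-like nuclei, and Hsph1 was -0.18 over all retained nuclei. In tumor-like nuclei Hsph1, near 0 in the main test, was 0.023 with limma, 0.0088 without a filter and 0.037 at 1000 UMIs or more. In fibroblast-like nuclei Dnajb1 was -0.52 to 0.19 leaving out 1 tumor at a time and 0.21 without both tumors rich in myocyte markers, and the Bag3 difference between tumor-like and fibroblast-like nuclei was -0.12 to 0.10 leaving out 1 tumor at a time. Hspb1 in pericyte-like nuclei was -1.58 without untreated tumor 1, where it was -2.59 with every tumor kept. The Bag3 fold change in tumor-like nuclei stayed between -0.86 and -0.49 over 19 settings.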
